A study of Mus musculus with 4 samples.

Results

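Translation factor genes were followed in RNA bound by YTHDF1 and in total RNA of Hepa 1-6 cells, a mouse hepatocellular carcinoma line. The set held 10 of the 53465 genes in the deposited table, taken by Ensembl ID: the initiation factor genes Eif3a (ENSMUSG00000024991), Eif3b (ENSMUSG00000056076), Eif3c (ENSMUSG00000030738), Eif4a1 (ENSMUSG00000059796), Eif4e (ENSMUSG00000028156), Eif4g1 (ENSMUSG00000045983) and Eif4g2 (ENSMUSG00000005610), the elongation factor genes Eef1a1 (ENSMUSG00000037742) and Eef2 (ENSMUSG00000034994), and Pabpc1 (ENSMUSG00000022283), the gene of a poly(A)-binding protein. YTHDF1 is a reader of N6-methyladenosine, a methyl mark on mRNA, in the cytoplasm, and the study asked about its regulation by USP5, a ubiquitin-specific protease. Cells carried a control guide (sgcontrol, genotype WT in the labels) or a guide for Usp5 (sgUsp5, labelled Usp5 Knockdown). All were otherwise untreated Hepa 1-6 cells as far as the labels say. From each, 1 library was made from RNA recovered with a YTHDF1 antibody (RNA immunoprecipitation, RIP) and 1 from the lysate before precipitation (input), which gave 4 groups of 1 library. The labels do not say whether the guided cells were a pool or a clone, and no precipitate with a control antibody was used here.

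The 4 libraries held between 29898171 and 33941019 counts. The deposited table lists Ensembl IDs without gene names and the reference used here paired 0 of them. The pairing of these 10 IDs with symbols came with the gene set. The levels of Usp5 and Ythdf1, which would check the labels, the markers of hepatocytes and of other cell types, and other translation factors were therefore not analysed here. Levels in CPM below are counts relative to the library total, scaled with TMM factors, which align the bulk of genes between libraries. They are relative to the rest of each library and not divided by transcript length, so a level is compared between libraries and not between genes.

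Cap-dependent initiation starts when eIF4E, which binds the mRNA cap, the scaffold eIF4G1 and the RNA helicase eIF4A1 form the eIF4F complex. The complex recruits the small ribosomal subunit through eIF3, and PABPC1 on the poly(A) tail binds eIF4G1. EEF1A1 then delivers aminoacyl-tRNA and EEF2 drives translocation of the ribosome. The mRNAs of Eef1a1, Eef2 and Pabpc1 are classic TOP mRNAs, which begin with a C and a run of pyrimidines (5′ terminal oligopyrimidine) and whose translation depends on mTORC1. Eif3c mRNA has been reported as a target of YTHDF1 in cancer cells.

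The pyrimidine run that gives TOP mRNAs their name was looked for in RefSeq sequence (GRCm38.p6), which held starts of 8 of the 10 genes. Eif4g2 and Pabpc1 had no entry. Eif4e had 2 starts, of which the most upstream was used. The search took the longest run of C and T that opens with C in the 50 bases after the start, on the sense strand. The 4 genes below are shown because their RIP ratios lay furthest from input in either direction or because their TOP class is at issue. Each line gives 30 bases of the gene's strand, with the run in capitals.
Eef2, chr10:81176634-81176663, plus strand: gacgtcagcggtCTCTTCCgccgcagccgc
Eef1a1, chr9:78481675-78481704, minus strand: cggtatataagtgcggcagtcgCCTTggac
Eif4g1, chr16:20672727-20672756, plus strand: gCCCTCTgcgccggtcacgtggggcgctgg
Eif4e, chr3:138526211-138526240, plus strand: cttaaggaaggcacgcgcttgCTTCTagat
The run was 7 bases long in Eef2, 4 in Eef1a1, 6 in Eif4g1 and 5 in Eif4e. In the same order it began at base 16, 43, 2 and 42 from the RefSeq start. A TOP run begins at the first base of the mRNA, so these lengths do not measure TOP character. Among the other genes it was longest in Eif3a, with 11 bases, and 5 bases long in Eif3b and Eif3c. A C followed by at least 6 further C or T letters was found in 2 of the 8 genes (Eef2 and Eif3a). It was found in 20.6% of all 32851 starts in the table, and in 42.9% when either strand was searched. RefSeq starts are not mapped cap sites, so a short run says only that the letters are not in this window.

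Reads were plentiful for all 10 genes. Pabpc1 had the most reads of any gene in the table, with 2.48% of counts in the control input (95% Wilson interval 2.48 to 2.49), 2.35% in the Usp5 input, 2.39% in the control RIP and 2.48% in the Usp5 RIP. Eif4e had the fewest among the 10, with 6333 and 5309 reads in the control and Usp5 inputs and 2157 and 1589 in the RIP libraries. Every gene in the set passed the filter of a mean of 1 CPM and had a mean log2 CPM above 5, the limit used here for abundant genes. Intervals given with ratios are 95% counting intervals. They cover counting error only, since each group has 1 library. Reads are taken as independent, although no molecular identifiers are described that would separate PCR copies from molecules. The intervals are narrow at this depth, so each ratio is also set against the 200 genes nearest in abundance. Those genes show how widely genes nearest in abundance varied between the same libraries, real differences included. For the most abundant members they are nearly the same genes. Eif3a, Eif3b, Eif3c, Eif4g1, Eef1a1, Eef2 and Pabpc1 thus share limits (-1.80 to 1.15 for control RIP over input) and are not placed independently. All genes set against Pabpc1 had fewer reads than it, so for Pabpc1 the match in abundance is loose.

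**Figure D1:**
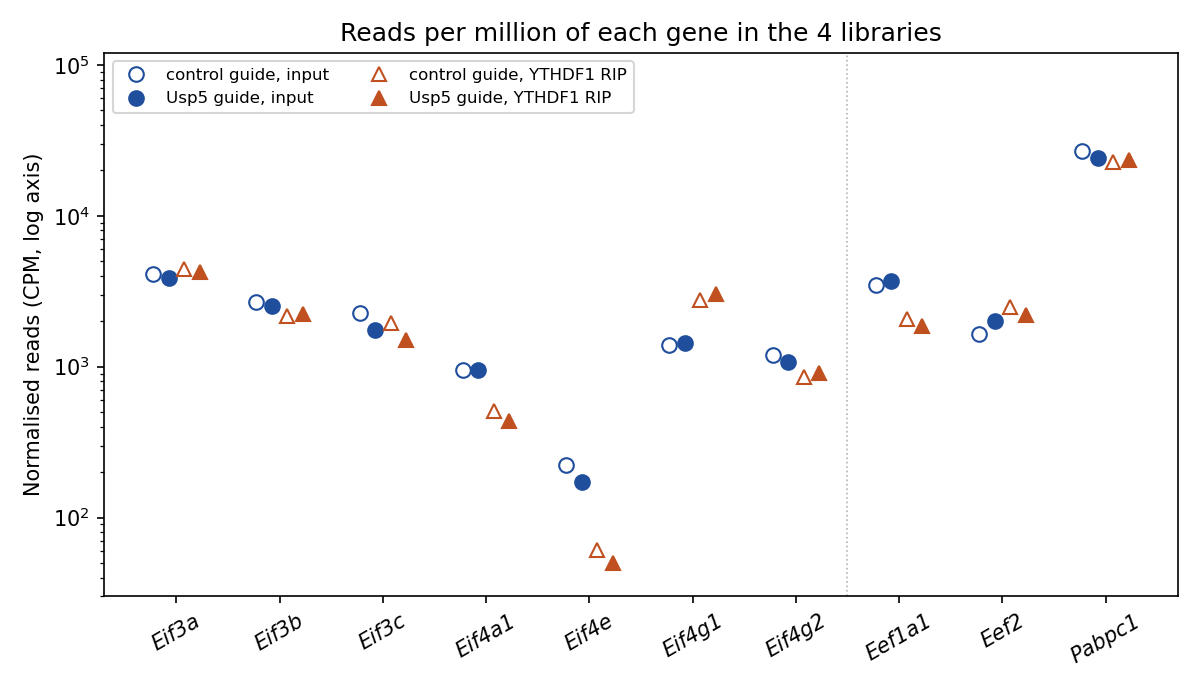
Level (CPM, TMM-scaled, log axis) of each gene in the 4 libraries, 1 point per library; circles are inputs, triangles YTHDF1 RIP, open symbols the control guide and filled symbols the Usp5 guide, and the dotted line separates the 7 initiation genes from Eef1a1, Eef2 and Pabpc1. Both RIP points of Eif4e, Eif4a1, Eef1a1, Eif4g2, Eif3b and Pabpc1 lie below both inputs, and those of Eif4g1, Eef2 and Eif3a lie above them. Only those of Eif3c overlap the inputs. The share of all genes with such separation was not determined.

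The first comparison asked which of these mRNAs were recovered with YTHDF1 more or less than their share of the input. Eif4g1 was 2.06-fold higher in the RIP than in the input and Eef2 1.275-fold higher, whereas Eif4e was 3.55-fold lower, Eif4a1 2.01-fold lower, Eef1a1 1.83-fold lower and Eif4g2 1.28-fold lower. These 6 passed the test over both guides (edgeR's quasi-likelihood test, 4 libraries, guide as block, Benjamini-Hochberg adjusted p under 0.05). The 3 eIF3 subunit genes and Pabpc1 did not pass. The test called 10.2% of all 12920 genes higher and 11.3% lower, and 18.9% and 23% of the 5126 abundant genes. With library totals in place of TMM factors, 1686 genes were called higher and 969 lower, beside 1321 and 1461. The set had 2 of 10 higher and 4 of 10 lower, beside a share of 41.8% called in either direction among abundant genes. The guides served as the 2 observations, which leaves 1 residual degree of freedom, and any effect of the Usp5 guide on recovery counts as error. The test moderates the variance of each gene with that of other genes. Its SEs and p-values therefore rest largely on the spread of other genes and not on these 2 observations alone. Nothing in the labels says that the libraries came from separate experiments, so the p-values cover the spread between these libraries alone.

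Within eIF4F the mRNAs of the 3 subunits parted. Eif4g1 had 1392 and 1441 CPM in the control and Usp5 inputs and 2779 and 3054 CPM in the RIP libraries. Both RIP values lay above both inputs, with a log2 fold change of 1.04 (SE 0.088, adjusted p = 8.14e-05). Eif4e, the gene of the cap-binding subunit, had 222 and 173 CPM in the inputs and 60.5 and 50.1 CPM in the RIP libraries. Both RIP values lay below both inputs, with a log2 fold change of -1.83 (SE 0.17, adjusted p = 0.000148). Its log2 ratios of -1.88 in control cells and -1.78 in Usp5 cells lay below the middle 95% of the 200 genes of like abundance (-1.54 to 1.44 and -1.24 to 1.17). In the Usp5 cells 0.605% of abundant genes had a lower ratio. Eif4a1, the gene of the helicase, had 952 and 947 CPM in the inputs and 508 and 438 CPM in the RIP libraries. Its log2 fold change was -1.01 (SE 0.12, adjusted p = 0.000436), and the inputs and RIP libraries did not overlap. Such separation of the RIP from the input libraries also held for Eif3a, Eif3b and Pabpc1, which did not pass. Its share among all genes was not determined, so here and below it describes the values and is no separate support.

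Ratios of reads within a library do not depend on how libraries are scaled. Eif4g1 had 6.27 reads for each read of Eif4e in the control input and 8.35 in the Usp5 input, but 46.0 (44.0 to 48.0) in the control RIP and 60.9 (58.0 to 64.0) in the Usp5 RIP. The RIP thus shifted this ratio 7.33-fold in control cells and 7.29-fold in Usp5 cells. For Eif4g1 over Eif4a1 the ratio went from 1.46 to 5.47 in control cells and from 1.52 to 6.98 in Usp5 cells. All 4 RIP ratios of these pairs exceeded those of the inputs, which follows from the opposite directions of the single genes. These pairs, like those below, were chosen after the values of the single genes were seen. Their ratios restate those values free of scaling and are no separate support.

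Eif4g2 encodes a relative of eIF4G1 that resembles its C-terminal part and does not bind eIF4E. It had 1192 and 1069 CPM in the inputs and 857 and 905 CPM in the RIP libraries, a log2 fold change of -0.36 (SE 0.11, adjusted p = 0.0412). The RIP values lay below the inputs, opposite to Eif4g1. Reads of Eif4g1 over Eif4g2 went from 1.17 to 3.24 in control cells and from 1.35 to 3.38 in Usp5 cells. The call of Eif4g2 was lost when counts were scaled by library totals (adjusted p = 0.224), when genes with few reads were kept (0.11) and without the block (0.074).

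**Figure D2:**
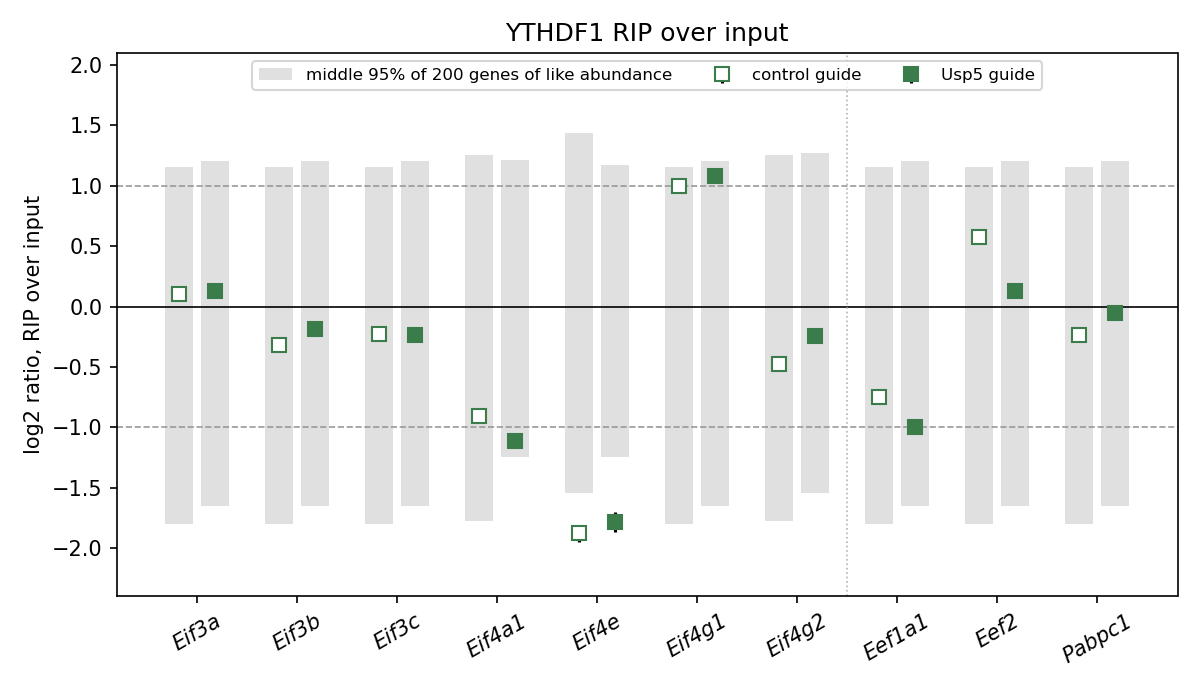
Log2 ratio of YTHDF1 RIP over input for each gene, with open squares for the control guide and filled squares for the Usp5 guide; bars through the points are 95% counting intervals, mostly smaller than the symbols, grey columns are the middle 95% of 200 genes of like abundance, and dashed lines mark 2-fold. Eif4g1 sits near the upper dashed line with both guides, and Eif4e, at -1.88 and -1.78, is the gene outside its grey columns.

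The eIF3 subunit genes stayed near the level of input. Eif3a, the gene of the largest subunit, had 4132 and 3888 CPM in the inputs and 4452 and 4258 CPM in the RIP libraries. Its log2 fold change of 0.12 (SE 0.072) did not pass (adjusted p = 0.287). Eif3b, the gene of a core scaffold subunit, had 2698 and 2532 CPM in the inputs and 2167 and 2220 CPM in the RIP libraries, a log2 fold change of -0.25 (SE 0.086, adjusted p = 0.0609). Its inputs and RIP libraries did not overlap, but the difference missed the threshold. Eif3a passed when counts were scaled by library totals (adjusted p = 0.03). Eif3b passed with DESeq2's Wald test (adjusted p = 0.0424), but not in edgeR's test with DESeq2's size factors (0.0602) or with library totals (0.468).

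Eif3c, chr7:126546911-126566366 in GRCm38.p6 and a core subunit of eIF3, was not enriched in the RIP with either guide. It had 2260 CPM in the control input and 1937 CPM in the control RIP, a log2 ratio of -0.22 (-0.24 to -0.21). In Usp5 cells it had 1761 CPM in the input and 1499 CPM in the RIP, a log2 ratio of -0.23 (-0.25 to -0.21). RIP was below input within each guide, but the control RIP lay above the Usp5 input. Over both guides the log2 fold change was -0.23 (SE 0.089, adjusted p = 0.0987), and it did not pass under any of the 6 alternatives (adjusted p 0.0687 to 0.626). Of abundant genes, 41.3% had a lower ratio in control cells and 39.7% in Usp5 cells. With levels relative to each library and no control antibody, these ratios do not show whether Eif3c mRNA was bound. In control cells all 3 eIF3 genes lay within the middle 95% of genes of like abundance (-1.80 to 1.15). Among the set, the genes within 1 log2 CPM of Eif3c whose centred log2 CPM over the 4 libraries came closest to it were Eif3b (Euclidean distance 0.344), Eif4g2 (0.371) and Eef1a1 (0.739).

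The TOP mRNAs of the elongation factors went in opposite directions. Eef1a1 had 3474 and 3713 CPM in the inputs and 2065 and 1860 CPM in the RIP libraries, with no overlap. Its log2 fold change was -0.87 (SE 0.09, adjusted p = 0.000263). Eef2 had 1658 and 2013 CPM in the inputs and 2467 and 2202 CPM in the RIP libraries, so both RIP values lay above both inputs. Its log2 fold change of 0.35 (SE 0.11) passed narrowly (adjusted p = 0.0478) and was lost with DESeq2's size factors (0.0724), with genes of few reads kept (0.16) and without the block (0.11). In each library Eef2 reads can be set against those of Eef1a1. There were 0.477 (0.472 to 0.483) Eef2 reads per Eef1a1 read in the control input and 0.542 (0.537 to 0.548) in the Usp5 input. The RIP libraries held 1.19 and 1.18, more Eef2 than Eef1a1 reads with both guides. Eef1a1 has processed pseudogenes in mouse, and the handling of reads with several matches is not given in the sources used here. Its counts, and those of any other member with such copies, are uncertain to that extent. In RefSeq, 5 genes of the set (Eif3a, Eif4a1, Eif4g1, Eif4g2 and Eef2) overlap genes of small nucleolar RNAs, and 0 overlap a protein-coding gene. What this does to their counts was not tested.

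Pabpc1, whose protein links the poly(A) tail to eIF4G1, had 26778 and 24255 CPM in the inputs and 22760 and 23371 CPM in the RIP libraries. The RIP values were below the inputs by a log2 fold change of -0.14 (SE 0.052), which did not pass (adjusted p = 0.0746). With library totals the fold change was 0.01, so its direction depends on the scaling.

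Set side by side as classes, initiation genes and the TOP mRNAs overlapped. The 7 initiation genes had a median log2 ratio of RIP over input of -0.32 in control cells (range -1.88 to 0.997) and -0.23 in Usp5 cells (-1.78 to 1.08). Eef1a1, Eef2 and Pabpc1 had medians of -0.23 (-0.75 to 0.57) and -0.05 (-0.998 to 0.13). The range of the TOP mRNAs lay inside that of the initiation genes with both guides. The medians of all 12920 genes were 0.03 and 0.02. The initiation median minus the TOP median was -0.08 in control cells and -0.18 in Usp5 cells, and the latter became 0.20 when Pabpc1 was left out. Each class thus held a gene above input and a gene below it that passed the test, though the call of Eef2 held in only 3 of 6 alternatives. The range inside each class exceeded the difference between the medians. A range of single genes mostly exceeds a difference of medians, so this does not show the classes to be alike.

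Within single lines the genes were also described by size, as past 2-fold with an interval that leaves out equal levels, since 1 library per group allows no test. In control cells 0 of 10 were higher and 1, Eif4e, was lower, where 18.4% and 15% of all genes and 8.84% and 11% of abundant genes passed. In Usp5 cells Eif4g1 was higher and Eif4e and Eif4a1 were lower, where 15.9% and 13.7% of all genes and 6.48% and 8.15% of abundant genes passed. The nearest misses were Eif4g1 in control cells, at 1.996-fold higher, and Eef1a1 in Usp5 cells, at 1.997-fold lower.

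Whether the Usp5 guide went with other levels of these mRNAs was compared next. None of the 10 genes passed the test over both fractions (edgeR's quasi-likelihood test, fraction as block). Over all genes it called 0 higher and 3 lower (0.0232%), and DESeq2 called 12 and 10, none of them in the set. An unadjusted p under 0.05 was reached by 1 of the 10 genes, Eif3c, and by 612 of all genes (4.74%). By size, 0 of the 10 differed 2-fold between the inputs, where 24.5% of all and 1.91% of abundant genes did. Between the RIP libraries 0 of 10 did so, where the shares were 9.19% and 0.117%. Input and RIP of a guide came from 1 lysate, so the test does not cover differences between cultures. In bulk RNA, fewer cells with an mRNA and less of it per cell cannot be told apart.

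Eif3c had the lowest level relative to control among the 10 in the RIP libraries and, with Eif4e, in the inputs. Its reads numbered 64502 with the control guide and 54167 with the Usp5 guide in the inputs. The RIP libraries held 69085 and 47514. The log2 ratio of Usp5 over control was -0.36 (-0.38 to -0.34) between the inputs and -0.37 (-0.39 to -0.35) between the RIP libraries. In the fit the log2 fold change was -0.36 (SE 0.089), or 1.29-fold lower. The adjusted p was 0.652 (edgeR's quasi-likelihood test, Benjamini-Hochberg over all genes) and ran from 0.131 to 1 over the 6 alternatives. The RIP value lay just below the middle 95% of the 200 genes of like abundance (-0.35 to 0.34), and the input value lay within it (-0.51 to 0.34). Of abundant genes, 5.60% had a lower ratio between the RIP libraries and 17% between the inputs.

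Eif3a and Eif3b lay nearer to equal levels between guides, with log2 ratios of -0.09 each between the inputs and -0.06 and 0.03 between the RIP libraries. Reads of Eif3c over Eif3a went from 0.547 in the control input to 0.453 in the Usp5 input, and from 0.435 to 0.352 in the RIP libraries. Against Eif3b the ratio went from 0.838 to 0.695 and from 0.894 to 0.675. Eif3b over Eif3a differed less, from 0.653 to 0.651 in the inputs and from 0.487 to 0.521 in the RIP libraries. Eif3c was thus lower in Usp5 cells against both other subunits in both fractions, by 1.21-fold to 1.32-fold. Since Eif3c was lower by nearly the same amount in input and RIP, its recovery was close in both: the log2 ratio of enrichments was -0.01 (-0.03 to 0.01), 0.02 with DESeq2's size factors and -0.06 with library totals. Both of these lie outside the counting interval, which does not cover the choice of scaling.

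**Figure D3:**
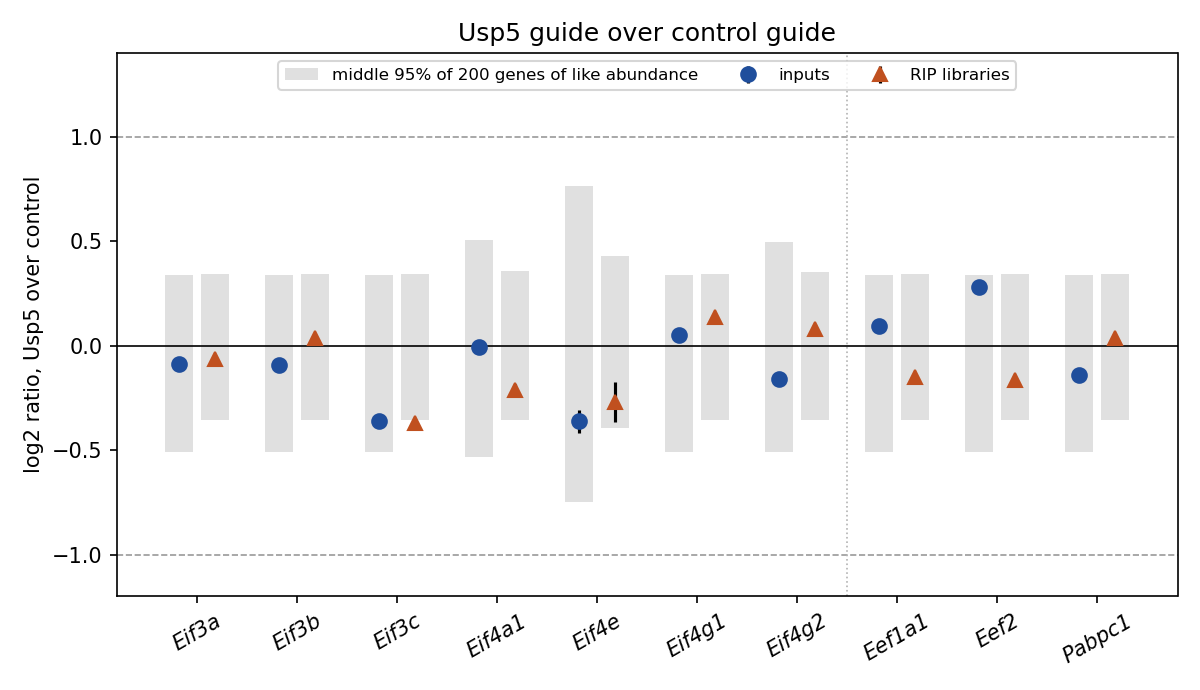
Log2 ratio of the Usp5 guide over the control guide for each gene, circles for the inputs and triangles for the RIP libraries, with 95% counting intervals, grey columns for the middle 95% of 200 genes of like abundance and dashed lines at 2-fold. Eif3c lies at -0.36 and -0.37 in the 2 fractions, and its triangle is just below its grey column.

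For the other genes the ratios between guides were small. Eif4e had log2 ratios of -0.36 (-0.42 to -0.31) between the inputs and -0.27 (-0.36 to -0.18) between the RIP libraries, on the same side as Eif3c and within the middle 95% of genes of like abundance in both. Eif4g1 had 0.05 and 0.14, and Eif4a1 -0.01 and -0.21. The initiation genes had a median log2 ratio of -0.09 between the inputs and -0.06 between the RIP libraries. Eef1a1, Eef2 and Pabpc1 had medians of 0.10 and -0.15. All genes had medians of -0.01 in both.

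Recovery with YTHDF1 was then compared between guides as the difference of log2 enrichments, Usp5 minus control. It has no test with 4 libraries. By the size rule 0 of 10 genes differed, where 27.1% of all and 2.61% of abundant genes did. The most negative value was that of Eef2, -0.44 (-0.47 to -0.42), whose log2 enrichment was 0.57 in control and 0.13 in Usp5 cells. Its level differed more between the inputs (1658 and 2013 CPM) than between the RIP libraries (2467 and 2202 CPM). Eef1a1 had -0.25 (-0.27 to -0.23), with log2 enrichments of -0.75 and -0.998. Eif4g2 had the highest value, 0.24 (0.20 to 0.27), and Pabpc1 had 0.18 (0.17 to 0.19). All 10 values lay within the middle 95% of genes of like abundance, which ran from -0.46 to 0.53 for Eef2. The median over the 7 initiation genes was 0.09 and over the 3 TOP mRNAs -0.25, beside -0.01 for all genes.

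**Figure D4:**
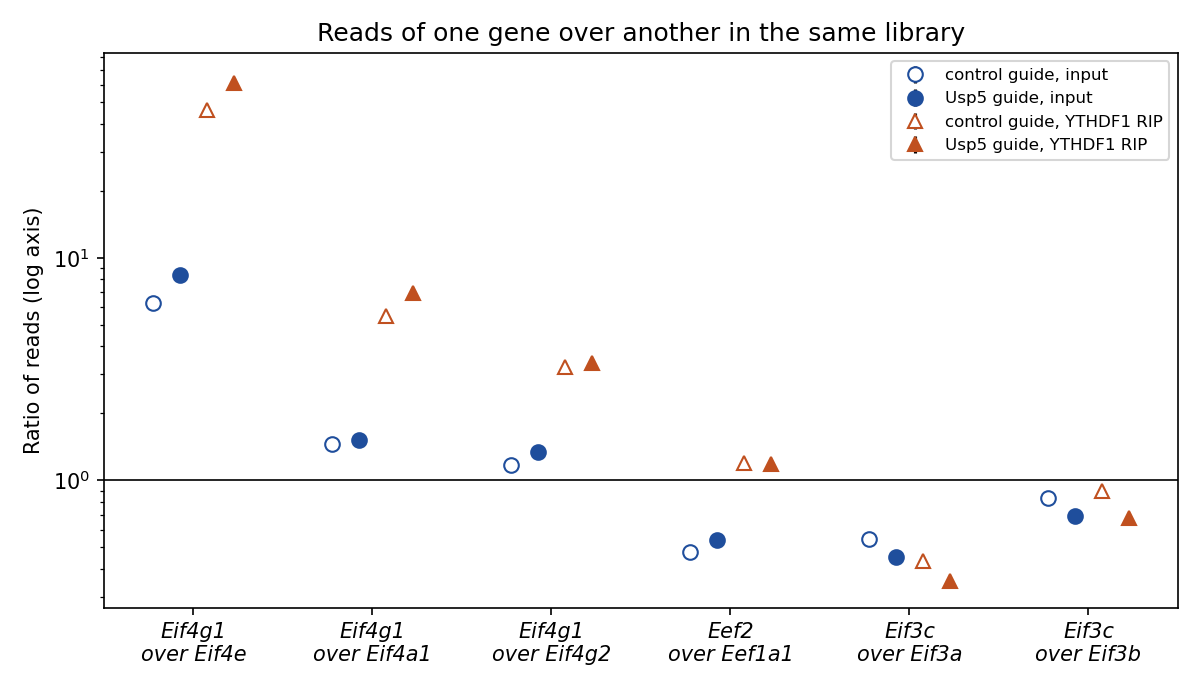
Reads of the first gene over reads of the other in the same library (log axis), with 95% exact binomial intervals mostly smaller than the symbols; circles are inputs, triangles RIP, open symbols the control guide and filled symbols the Usp5 guide. The Eif4g1 and Eef2 ratios are separated by fraction, with triangles above circles, whereas both Eif3c ratios are lower with the Usp5 guide in each fraction.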

How the data were processed

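The authors deposited raw counts of reads per gene of 4 libraries as a single table. HISAT2 2.1.0, featureCounts 1.6.3 and mm10 are named in the submitters' processing notes. Annotation release, strand, multiple matches and duplicates: their handling is not given in the sources used here. The labels' protocols describe no molecular identifiers. Columns were matched to libraries by the short names in the labels, and 0 were left over.

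TMM factors (edgeR 4.0.16, R 4.3.3) were 0.926 and 0.969 for the control and Usp5 inputs and 1.05 and 1.06 for the RIP libraries. The 12920 genes averaging 1 CPM or more were compared. Main tests were edgeR's quasi-likelihood tests of fraction with guide as block, and of guide with fraction as block, adjusted over all genes by Benjamini-Hochberg at 0.05. These tests moderate the variance of each gene across genes. The SE is the size of the log2 fold change over the root of the moderated F. Log2 ratios between libraries had 0.5 counts added, with Clopper-Pearson intervals, or intervals from reciprocal counts for differences of enrichment. The code was tested on simulated data.

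The genes, groups and lists were chosen with earlier results of these data known. The text names the 10 genes of the set, with read ratios of pairs chosen after values were seen, as were the genes of like abundance. The 9 lists of other translation factors and markers could not be matched to IDs and were not analysed here.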

Additional observations from a re-analysis of the deposited data

Results flagged for a closer look

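For 5 of the 10 genes the Usp5 guide went with a higher level in 1 fraction and a lower level in the other, with both counting intervals off 0. With 1 library per group the difference was not tested. The share of all or of abundant genes with such opposite directions was not determined, so 5 of 10 is not read as a trait of this set. The counting intervals cover counting error only. With intervals widened by the scatter between libraries of genes at a mean log2 CPM of 0 to 6, the opposite directions held for 3 genes (Eef1a1, Eef2 and Pabpc1), and with the larger scatter of genes at 9 or more, where 9 of the 10 genes lie, for 0. Usp5 over control was higher in the inputs and lower in the RIP libraries for Eef2 (log2 ratios 0.28 and -0.16, difference -0.44) and Eef1a1 (0.10 and -0.15, difference -0.25). It was lower in the inputs and higher in the RIP libraries for Eif4g2 (-0.16 and 0.08, difference 0.24), Pabpc1 (-0.14 and 0.04, difference 0.18) and Eif3b (-0.09 and 0.03, difference 0.13). All 5 differences lay within the middle 95% of 200 genes of like abundance.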

How the results depend on the processing

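With 1 library per group no library could be left out, and no replicate pairs exist. The guide or fraction served as block, and settings changed 1 choice at a time, except that DESeq2's Wald test also used its own size factors. Eif4g1, Eif4e, Eif4a1 and Eef1a1 passed in RIP over input under all 6 alternatives. Without the replicate block, with DESeq2's size factors or with at least 10 reads in all, 1 gene of the set was called higher and not 2, since Eef2 was lost. Library totals moved the median log2 ratio of all genes from 0.03 to 0.21 in control and from 0.02 to 0.15 in Usp5 cells. There 969 genes were called lower over both guides in place of 1461 and 1686 higher in place of 1321, which moved the higher share of calls. By size 1 gene of the set was then higher in control and 1 lower in Usp5 cells. With DESeq2's size factors 3 genes of the set were lower by size in Usp5 cells in place of 2, since the log2 ratio of Eef1a1 was -1.01. For Usp5 over control over both fractions, a mean CPM of at least 5 gave 9 higher and 9 lower, DESeq2 12 and 10, at least 10 reads in all 1 lower, and no replicate block 0. The size rule over all genes, in the order control RIP over input, Usp5 RIP over input, inputs, RIP libraries and difference in enrichment (higher, then lower), gave 1399, 1195, 1101, 993, 658, 630, 109, 115, 738 and 789 at a mean CPM of at least 5. Intervals widened by the scatter between libraries (57.7 times the binomial variance for inputs and 18.4 for RIP, from genes at a mean log2 CPM of 0 to 6, which holds 0 of the set) gave 695, 1117, 537, 866, 86, 109, 64, 68, 127 and 112. The counts of the set by size were the same under both, and with the scatter of genes at 9 or more (352 and 201), an alternative chosen after seeing the data. The initiation median minus the TOP median, in the same order, was -0.08, -0.18, -0.19, 0.09 and 0.33. With Eef1a1 and Eef2 alone it was -0.23, 0.20 (reversed), -0.28 and 0.43 in all but the RIP libraries, where it moved by less than counting error. Without Eif4g2 it was -0.035, -0.16, 0.012 and 0.30 in all but the inputs. Fewer genes tested, wider intervals and other class members differ here by construction. For the other settings the cause was not tested. Counting intervals of the 10 genes were narrower than the spread between genes of like abundance, which includes real differences. Whether depth limits any of the 10 genes was not tested, since PCR copies cannot be told from molecules here.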
